A study of Mus musculus with 24 samples.

Results

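The genes described here encode folliculin and the proteins it works with: Flcn, Fnip1 and Fnip2 (folliculin and its partners), Tfe3, Tfeb and Mitf (the transcription factors that folliculin holds in check), Rraga, Rragc and Rragd (Rag GTPases) and Gpnmb (a membrane glycoprotein gene that these factors drive). They were taken by name, 10 of the 35968 genes to which transcripts were assigned, and all 10 were among the 14577 genes with enough counts to be tested. RNA was sequenced from C2C12 cells, an immortal mouse myoblast line, labelled as undifferentiated myoblasts and grown below confluence. For 48 h the cells had carried siRNA, either a control with no target (siCont), one that targets Keap1 (siKeap1), one that targets Fem1b (siFem1b), or the targeting pair (siFem1b/Keap1). Each of the 4 groups had 3 libraries. Each gene was targeted with a single siRNA in a single cell line, and the labels call the libraries triplicates without saying whether they came from separate cultures. The tests therefore speak only to the spread between libraries, part or all of which may be technical.

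Folliculin binds FNIP1 or FNIP2 at the surface of the lysosome, where the complex makes RagC and RagD hydrolyse their GTP. Rag GTPases work as pairs, RagA or RagB with RagC or RagD, and the pair with RagC or RagD in the GDP state hands TFE3, TFEB and MITF to the kinase mTORC1. The phosphorylated factors stay in the cytoplasm, and without active folliculin they enter the nucleus and switch on genes of lysosomes and autophagy. Several genes of this circuit, Gpnmb, Flcn, Fnip2 and Rragd among them, are known targets of the same factors, and Gpnmb is often used as a readout of lost folliculin activity. FEM1B picks substrates for a CUL2 ubiquitin ligase, and FNIP1 protein is a known substrate of it in muscle precursor cells under reductive stress. KEAP1 is the receptor through which a CUL3 ligase removes NRF2, the activator of antioxidant genes. The RNA values below measure neither FNIP1 protein, nor the place of TFE3 in the cell, nor the nucleotide state of the Rag proteins.

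Libraries held between 31.9 M and 43.0 M estimated counts after both sequencing runs of each were added. Levels are given as CPM, which are counts scaled by the total of the library multiplied by its scaling factor (TMM, described with the processing). Keap1 stood at 56.7 to 63.3 CPM in the 6 libraries without siKeap1 and at 8.59 to 11.1 CPM in the 6 with it. Fem1b stood at 94.1 to 106 CPM without siFem1b and at 11.6 to 14.2 CPM with it, so that every library matched its label. The main axis of variation (55.5% of the variance) separated groups with and without siFem1b. Markers of myoblasts, 8 genes of which none was under 1 CPM in every group, summed to 1789 to 1817 CPM in siCont, 1561 to 1675 in siKeap1, 2266 to 2383 in siFem1b and 1932 to 1990 in siFem1b/Keap1. Against siCont, 1 of the 8 rose and 4 fell with siKeap1, 8 rose with siFem1b, and 5 rose and 2 fell with both. In these comparisons 42.2%, 62.1% and 67.5% of all genes tested changed in either direction, by the test and threshold given below. Genes that rise when myoblasts turn into myotubes, a list of 9, summed to between 12.8 and 16.6 CPM in siCont and siKeap1, 190 to 203 CPM in siFem1b and 153 to 165 CPM in siFem1b/Keap1. The part of either list in the results below was not tested.

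The siRNAs themselves bear on how the values can be read, since the first bases of a guide strand, its seed, can bind other mRNAs. The given sequences read like the target mRNA, and the capitals mark the bases that pair with guide positions 2 to 8, taking the guide as the reverse complement.
siCont: ugguuuacaugUUUUCUGa
siKeap1: gcgccaauguuGACACGGa
siFem1b: gaagaucagugCAGAAUUa
A full match was found in Keap1 for siKeap1 and in Fem1b for siFem1b, and in no transcript of the 10 genes. The most abundant coding transcript of each of the 10 genes held no seed match for siKeap1. For siFem1b, a seed match lay in the 3′ untranslated region of Fnip2, Rragd and Mitf, and the sites are shown with the same bases in capitals.
Fnip2: aatgtgtttttCAGAATTa
Rragd: tgagtctgaaaCAGAATTt
Mitf: acccctgggtgCAGAATTg
In the groups given siFem1b, Fnip2 was lower than in siCont, while Rragd and Mitf were higher. Fnip1, Fnip2 and Rraga each held a further siFem1b match in the coding sequence. The non-targeting siRNA had 3 matches in the 3′ untranslated region of Fnip1, 2 in those of Fnip2 and Rragd, and 1 in those of Gpnmb and Tfe3. Whether any of these sites was bound was not tested.

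TFE3, TFEB and MITF bind the E-box CACGTG, best in the longer form TCACGTGA found at lysosomal genes, and MITF also binds TCATGTG. The 250 bases before the RefSeq start (GRCm38.p6) are shown for Gpnmb, Rragd and Flcn, which rose most with siFem1b, and for Fnip1 and Rragc, which were picked because they alone of the 10 held the E-box, given in capitals.
Gpnmb (chr6:49036268-49036517): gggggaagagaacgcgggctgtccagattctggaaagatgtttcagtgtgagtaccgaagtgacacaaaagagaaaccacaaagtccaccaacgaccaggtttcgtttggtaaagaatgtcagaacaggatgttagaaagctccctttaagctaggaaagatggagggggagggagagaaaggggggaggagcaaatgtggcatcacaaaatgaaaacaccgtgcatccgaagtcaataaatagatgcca
Rragd (chr4:32982748-32982997): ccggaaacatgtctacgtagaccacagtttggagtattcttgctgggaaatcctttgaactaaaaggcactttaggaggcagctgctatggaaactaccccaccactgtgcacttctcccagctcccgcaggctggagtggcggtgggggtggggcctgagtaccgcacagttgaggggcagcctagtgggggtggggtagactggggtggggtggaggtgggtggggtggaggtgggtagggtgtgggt
Flcn (chr11:59810040-59810289): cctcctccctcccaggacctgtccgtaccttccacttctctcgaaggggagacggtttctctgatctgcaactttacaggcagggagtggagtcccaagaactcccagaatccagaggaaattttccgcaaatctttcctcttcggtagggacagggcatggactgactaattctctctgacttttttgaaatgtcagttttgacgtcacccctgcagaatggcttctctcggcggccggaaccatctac
Fnip1 (chr11:54437929-54438178): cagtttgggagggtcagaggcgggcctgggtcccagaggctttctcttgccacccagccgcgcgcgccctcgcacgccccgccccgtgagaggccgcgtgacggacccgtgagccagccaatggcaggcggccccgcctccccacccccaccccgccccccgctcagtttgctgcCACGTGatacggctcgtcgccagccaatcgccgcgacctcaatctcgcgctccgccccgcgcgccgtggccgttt
Rragc (chr4:123917183-123917432): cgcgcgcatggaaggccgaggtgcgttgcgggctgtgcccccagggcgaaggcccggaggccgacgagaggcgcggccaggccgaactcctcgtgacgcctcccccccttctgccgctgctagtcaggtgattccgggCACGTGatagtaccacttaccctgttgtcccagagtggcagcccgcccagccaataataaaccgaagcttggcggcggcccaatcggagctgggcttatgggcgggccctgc
Fnip1 held CACGTG at position -75 and Rragc at position -112, counted back from the start site. Fnip1 was not called in either group with siFem1b, whereas Rragc was called higher in both. The part of the motif in these values was not tested. On either strand, none of the other windows of the 10 genes, those of Mitf, Tfe3 and Fnip2 among them, held CACGTG, and none of all 10 held TCACGTGA or TCATGTG. Of all 32851 RefSeq windows of this length, 6.02% held CACGTG, 0.785% TCACGTGA and 3.25% TCATGTG. TCACGTGA contains CACGTG, so these shares overlap. A match is a description of the letters, and its absence from a window says nothing about binding elsewhere in a gene.

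Depletion of Fem1b, alone or with Keap1, was accompanied by more RNA of Gpnmb, Flcn, Rragc and Rragd and less RNA of Fnip2. Depletion of Keap1 alone went with more Mitf and Tfe3 and less Fnip1, Fnip2 and Rag RNA. Mitf also rose in both groups with siFem1b, and Tfe3 with both siRNAs, each by less than with siKeap1 alone. Smaller rises of Rraga and Tfeb were called in both groups with siFem1b, and several of these calls were lost in other fits. In siKeap1 against siCont, 2 of the 10 genes rose and 5 fell, where 42.2% of all genes tested were called (18.4% higher and 23.8% lower, adjusted p under 0.05 by edgeR's quasi-likelihood test). Their median log2 fold change was -0.24, beside -0.02 over all genes tested. With siFem1b against siCont, 7 rose and 1 fell, against 62.1% of all genes called (30% higher and 32.1% lower), and the median was 0.25 beside -0.01. For siFem1b/Keap1 against siCont, 8 rose and 1 fell, where 67.5% of all genes were called (33.8% higher and 33.7% lower), with a median of 0.30 beside 0.01. These comparisons share the siCont libraries, and a count over 10 genes only describes them. Libraries of both groups did not overlap for 8 of the 10 genes with siKeap1, 8 with siFem1b and 9 with both siRNAs, where the same held for 51.2%, 63.6% and 70.3% of all genes tested.

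**Figure D1:**
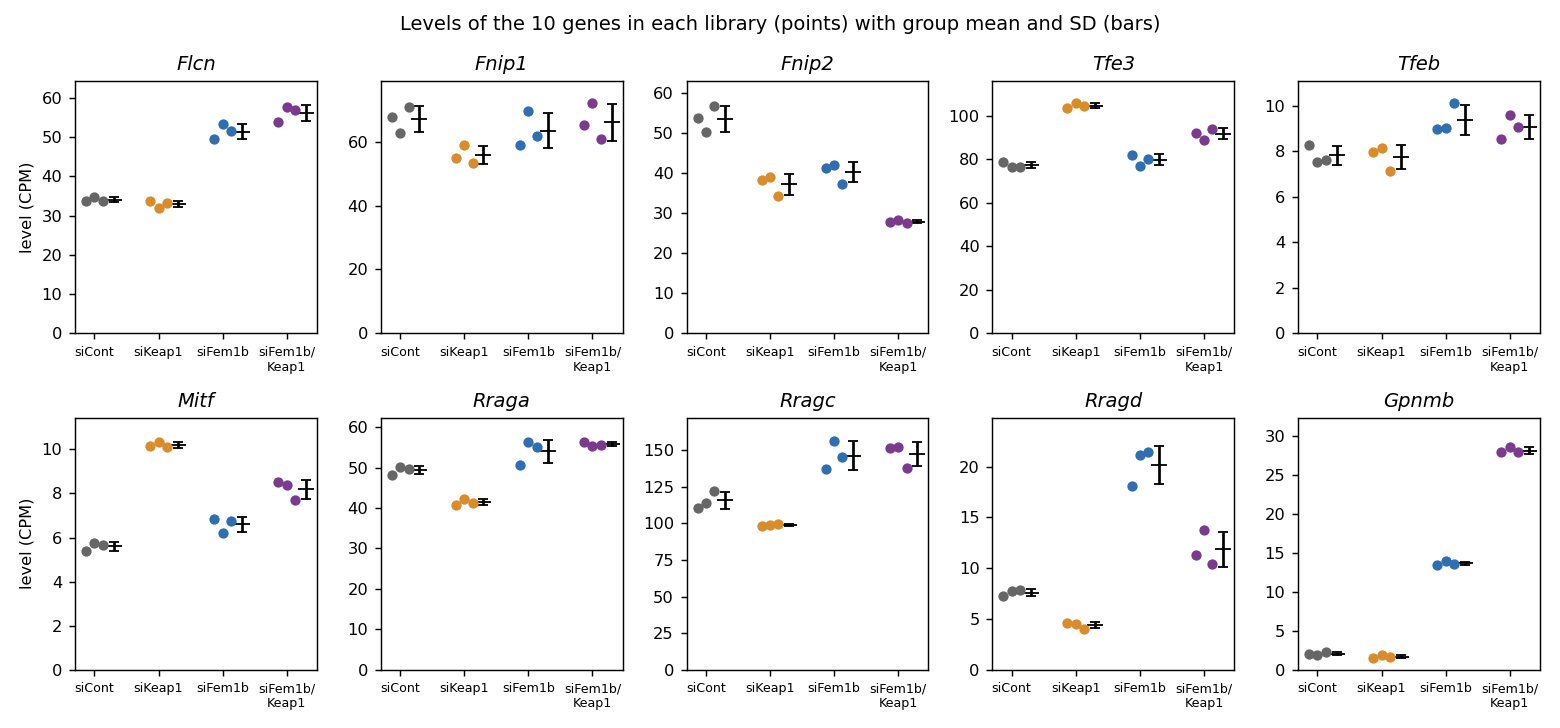
Level of each of the 10 genes in CPM (y axis, from 0) in every library (points), by siRNA group (x axis), with the group mean and SD of 3 libraries as bars. Gpnmb and Flcn stand apart in both groups with siFem1b, Mitf and Tfe3 are highest in siKeap1, and Fnip2 is lowest with both siRNAs.

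Flcn encodes folliculin itself and lies on chromosome 11 (GRCm38, 59791408 to 59810016, minus strand). Its level was 33.7, 34.8 and 33.8 CPM in the siCont libraries and 33.7, 32.1 and 33.1 CPM in siKeap1. It was 49.5, 53.3 and 51.6 CPM in siFem1b and 53.9, 57.8 and 57.0 CPM in siFem1b/Keap1. All 6 libraries with siFem1b lay above all 6 without. Flcn rose 1.51-fold with siFem1b (log2 fold change 0.59, SE 0.05, adjusted p = 1.46e-09) and 1.65-fold with both siRNAs (0.72, SE 0.05, adjusted p = 5.63e-11). With siKeap1 alone the log2 fold change was -0.05 (adjusted p = 0.439, 95% interval -0.16 to 0.06), and it turned to 0.13 when only the first sequencing run was used. Both siRNAs together gave 1.09-fold more Flcn than siFem1b alone (adjusted p = 0.0243), a call that was lost without siFem1b library 1 (adjusted p = 0.114) or 3 (0.0657), without siFem1b/Keap1 library 2 (0.105) or 3 (0.107), with no filter on low counts (0.0722), and in each run alone (0.105 and 0.078). In RNA from a whole culture, more RNA per cell and more cells with the RNA cannot be told apart.

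Fnip1 encodes the folliculin partner whose protein FEM1B is known to bind, and lies on chromosome 11 (54438199 to 54518235, plus strand). Levels were 67.9, 63.0 and 71.0 CPM in siCont, 55.1, 59.2 and 53.5 CPM in siKeap1, 59.0, 69.7 and 62.0 CPM in siFem1b and 65.5, 72.4 and 60.9 CPM in siFem1b/Keap1. The siKeap1 libraries all lay below those of siCont, and both groups with siFem1b overlapped siCont. Fnip1 fell 1.21-fold with siKeap1 (log2 fold change -0.27, SE 0.07, adjusted p = 0.00606; 0.0594 in the first run alone). Its log2 fold change was -0.08 with siFem1b (adjusted p = 0.314, 95% interval -0.25 to 0.08) and -0.02 with both siRNAs (adjusted p = 0.783, -0.19 to 0.14). The sign of both turned when library totals replaced the scaling factors (0.01 and 0.10), and that of the latter also among genes of at least 5 CPM, in the first run, and without siCont library 3 or siFem1b/Keap1 library 3. Fnip1 RNA was thus not detectably changed in the groups with siFem1b, within these intervals. Nearly all Fnip1 RNA was assigned to one coding transcript, Fnip1-201, with 99.6% to 100% of the gene's TPM on average in each group.

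Fnip2 encodes the other folliculin partner, which can stand in for FNIP1, and lies on chromosome 3 (79455974 to 79567796, minus strand). It was at 53.8, 50.1 and 56.6 CPM in siCont, 38.3, 38.8 and 34.1 CPM in siKeap1, 41.2, 41.8 and 37.2 CPM in siFem1b and 27.8, 28.1 and 27.5 CPM in siFem1b/Keap1. No library of a depleted group reached the lowest siCont value, and the libraries with both siRNAs were the lowest of all. Fnip2 fell 1.45-fold with siKeap1 (log2 fold change -0.53, SE 0.06, adjusted p = 5.7e-07), 1.34-fold with siFem1b (-0.42, SE 0.06, adjusted p = 4.27e-06) and 1.93-fold with both (-0.95, SE 0.06, adjusted p = 6.87e-11). The sum of the separate changes was -0.95, equal to the change seen with both. Fnip2 holds the siFem1b seed match shown above, whose part in the fall was not tested. By transcript, the main coding form Fnip2-203 held 58.5% ± 0.7 (SD, n = 3) of the gene's TPM in siCont and 49.6% ± 2.3 in siFem1b/Keap1. A transcript with a retained intron, Fnip2-205, held 12.3% ± 1.7 and 21.1% ± 5.5. Its own level was alike in these groups (1.704 ± 0.383 and 1.725 ± 0.378 TPM), while Fnip2-203 was at 8.061 ± 0.616 and 4.087 ± 0.253 TPM. Shares of transcripts are estimates of the authors' tool and were not tested.

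Tfe3 encodes a member of the MiT/TFE family that is widely expressed, and lies on the X chromosome (7762560 to 7775202, plus strand). Its level was 78.9, 76.7 and 76.6 CPM in siCont and 104, 106 and 105 CPM in siKeap1. It was 82.3, 77.0 and 80.4 CPM in siFem1b and 92.1, 89.1 and 94.1 CPM in siFem1b/Keap1. The siKeap1 libraries were the highest, those with both siRNAs lay between, and siFem1b overlapped siCont. Tfe3 rose 1.35-fold with siKeap1 (log2 fold change 0.44, SE 0.04, adjusted p = 3.08e-08) and 1.19-fold with both (0.25, SE 0.04, adjusted p = 1.56e-05). With siFem1b the log2 fold change was 0.05 (adjusted p = 0.316), which passed the threshold with library totals alone (0.14, adjusted p = 0.00374) and among genes of at least 5 CPM (0.10, adjusted p = 0.0262).

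Mitf, the member best known from pigment cells, lies on chromosome 6 (97807052 to 98021349, plus strand). The siCont libraries held 5.37, 5.73 and 5.67 CPM and the siKeap1 libraries 10.1, 10.3 and 10.1 CPM. In siFem1b it stood at 6.86, 6.22 and 6.73 CPM and in siFem1b/Keap1 at 8.50, 8.36 and 7.70 CPM. The 4 groups did not overlap, and siKeap1 was highest. Mitf rose 1.82-fold with siKeap1 (log2 fold change 0.87, SE 0.08, adjusted p = 3.35e-08) and 1.47-fold with both siRNAs (0.55, SE 0.08, adjusted p = 4.41e-06). The rise with siFem1b, 1.18-fold (0.24, adjusted p = 0.0134), was lost without siCont library 1 (adjusted p = 0.0551), without siFem1b library 1 (0.0547), in the first run alone (0.176) and with an offset for transcript length (0.0723).

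Mitf has several promoters, and the one for its short melanocyte form is the last. A pair of coding transcripts that start at the first promoter, Mitf-202 (first base 97807058) and Mitf-207 (97807052), held most of the estimated Mitf RNA. Mitf-202 held 51.0%, 53.4%, 51.8% and 54.1% of the gene's TPM in siCont, siKeap1, siFem1b and siFem1b/Keap1, and Mitf-207 held 41.4%, 41.6%, 38.2% and 37.8%. The transcripts that start near the melanocyte promoter, Mitf-201 (97991792), Mitf-205 (97991819) and Mitf-208 (97991921), had small shares that varied between libraries by as much as their means. In siCont they stood at 2.76% ± 4.77, 3.43% ± 5.63 and 0.67% ± 1.17 (SD, n = 3), and in siKeap1 at 2.29% ± 3.97, 1.44% ± 2.49 and 0.66% ± 1.14. Mitf-208 was at 5.6% ± 4.46 in siFem1b and at 6.11% ± 10.58 with both siRNAs, from 0% to 18.3%. Of 8 melanocyte markers, 7 were under 1 CPM in every group, and all 8 summed to between 0.956 and 1.68 CPM over the 12 libraries. With siKeap1, the TPM of Mitf-202 was 2.28 ± 0.20 beside 1.21 ± 0.05 in siCont, and that of Mitf-207 was 1.78 ± 0.35 beside 0.99 ± 0.10.

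Tfeb, the member best known as a regulator of lysosomal genes, lies on chromosome 17 (47737030 to 47792419, plus strand) and was lower and less certain. Its level was 8.30, 7.55 and 7.60 CPM in siCont, 7.98, 8.13 and 7.13 CPM in siKeap1, 9.00, 9.01 and 10.1 CPM in siFem1b and 8.53, 9.59 and 9.08 CPM in siFem1b/Keap1. Both groups with siFem1b lay just above siCont. Tfeb rose 1.20-fold with siFem1b (log2 fold change 0.26, SE 0.08, adjusted p = 0.0103) and 1.16-fold with both (0.21, SE 0.08, adjusted p = 0.0304). The first call was lost without siFem1b library 3 (adjusted p = 0.0548), in the first run (0.074) and with the length offset (0.0703). The second was lost without siCont library 2 (0.089) or 3 (0.0988), without siFem1b/Keap1 library 2 (0.133) or 3 (0.057), with no filter (0.0597), with the length offset (0.0671) and in either run alone (0.0572 and 0.0754). With siKeap1 the log2 fold change was -0.01 (adjusted p = 0.911), and its sign turned in 12 of 23 other fits, among them those without siCont library 1, siKeap1 library 3, siFem1b library 2 or 3, or siFem1b/Keap1 library 1 or 3.

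Rraga encodes RagA, the partner that in active pairs carries GTP, and lies on chromosome 4 (86575668 to 86577285, plus strand). It stood at 48.2, 50.2 and 49.7 CPM in siCont, 40.8, 42.3 and 41.3 CPM in siKeap1, 50.7, 56.3 and 55.0 CPM in siFem1b and 56.4, 55.5 and 55.6 CPM in siFem1b/Keap1. Rragc encodes RagC, a direct substrate of the folliculin complex, and also lies on chromosome 4 (123917446 to 123936997, plus strand). Its levels were 110.5, 114 and 122 CPM in siCont, 98.1, 98.8 and 99.9 CPM in siKeap1, 137, 157 and 145 CPM in siFem1b and 152, 152 and 138 CPM in siFem1b/Keap1. For each gene, the siKeap1 libraries lay below siCont and all 6 libraries with siFem1b above it. Rraga fell 1.19-fold with siKeap1 (adjusted p = 1.52e-04) and Rragc 1.17-fold (adjusted p = 0.00156). Rragc rose 1.26-fold with siFem1b (log2 fold change 0.34, SE 0.05, adjusted p = 1.21e-05) and 1.27-fold with both (0.35, SE 0.05, adjusted p = 6.51e-06). Rraga rose 1.13-fold with both (0.18, SE 0.04, adjusted p = 0.00148) and 1.09-fold with siFem1b (0.13, adjusted p = 0.0159), the latter lost without siCont library 1 (adjusted p = 0.0685), without siFem1b library 2 (0.0533) and in the first run (0.295). Between both siRNAs and siFem1b alone, the log2 fold change was 0.05 for Rraga (95% interval -0.05 to 0.15) and 0.01 for Rragc (-0.11 to 0.13).

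Rragd encodes RagD, the partner that can take the place of RagC and whose gene the MiT/TFE factors are known to induce. It lies on chromosome 4 (32983037 to 33022180, plus strand). Levels were 7.23, 7.71 and 7.82 CPM in siCont, 4.65, 4.52 and 4.04 CPM in siKeap1, 18.04, 21.1 and 21.4 CPM in siFem1b and 11.3, 13.8 and 10.4 CPM in siFem1b/Keap1. The 4 groups did not overlap, with siFem1b highest and siKeap1 lowest. Rragd rose 2.66-fold with siFem1b (log2 fold change 1.41, SE 0.10, adjusted p = 3.13e-10) and 1.56-fold with both (0.65, SE 0.10, adjusted p = 1.19e-05), and fell 1.72-fold with siKeap1 (-0.79, SE 0.11, adjusted p = 1.29e-05). It was thus 1.70-fold lower with both siRNAs than with siFem1b alone (-0.77, SE 0.09, adjusted p = 1.72e-06), the opposite of Gpnmb.

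Genes of the myotube list moved in the same comparisons as Rragd. Of the 9, 9 rose with siFem1b, 8 with both siRNAs, and 1 rose and 4 fell with siKeap1. Of all genes tested, 30% were higher with siFem1b and 33.8% with both, and with siKeap1 18.4% were higher and 23.8% lower. Myog, Mymk, Myh3 and Tnnt1 were called in the directions of Rragd in all 3 and were lower with both siRNAs than with siFem1b alone, whereas Acta1 was higher with siKeap1 and higher with both than with siFem1b. Myog, which encodes the differentiation factor myogenin, was at 1.57 ± 0.26 CPM (SD, n = 3) with siCont, 0.037 ± 0.014 with siKeap1, 59.3 ± 2.6 with siFem1b and 4.97 ± 0.67 with the pair. Mymk, which encodes the fusion protein myomaker, was at 2.68 ± 0.36, 1.09 ± 0.10, 18.4 ± 0.8 and 6.66 ± 0.46 CPM. Over the 12 libraries, Mymk was among the 5 genes most like Rragd (Pearson's r of log2 CPM 0.99, among 10210 genes of at least 5 CPM on average), after Ctdsp2 (0.99) and before Adamts5, Igf2 and Ppp3ca (each 0.99). The 12 points fall into 4 groups of libraries, so that any gene with the same order of groups scores high. The part of myotube genes in the Rragd values was not tested.

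Gpnmb encodes a glycoprotein of lysosomes and the cell surface, best known from macrophages, osteoclasts and pigment cells. It lies on chromosome 6 (49036546 to 49070929, plus strand). Its level was 2.01, 1.91 and 2.27 CPM in siCont and 1.56, 1.90 and 1.59 CPM in siKeap1. It reached 13.5, 13.9 and 13.6 CPM in siFem1b and 27.9, 28.6 and 27.9 CPM in siFem1b/Keap1. The 6 libraries with siFem1b stood far above the rest, and those with both siRNAs above those with siFem1b. The values rest on 60 to 93 counts per library in siCont, 50 to 73 in siKeap1, 498 to 548 in siFem1b and 926 to 1096 with both. Gpnmb rose 6.57-fold with siFem1b (log2 fold change 2.72, SE 0.08, adjusted p = 6.66e-15) and 13.5-fold with both (3.76, SE 0.08, adjusted p = 6.92e-17). In the first run alone these log2 fold changes were 3.31 and 4.24, and in the second 2.52 and 3.60. It was 2.06-fold higher with both siRNAs than with siFem1b alone (1.04, SE 0.06, adjusted p = 2.42e-10).

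For Gpnmb in siKeap1 the log2 fold change was -0.30 (unadjusted 95% interval -0.57 to -0.03, adjusted p = 0.076). That became a call without siKeap1 library 2 (-0.40, adjusted p = 0.0405), in the second run alone (-0.44, adjusted p = 0.0218) and with the length offset (-0.53, adjusted p = 0.02), and was 0.20 (adjusted p = 0.643) in the first run alone. Most of the estimated Gpnmb RNA belonged to the coding transcript Gpnmb-201, with 61.8% ± 23.3 (SD, n = 3) of the gene's TPM in siCont, 74.2% ± 6.5 in siFem1b and 85.0% ± 2.6 with both.

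Most markers of the cell types in which Gpnmb is best known were near 0. Of 11 macrophage markers, 8 were under 1 CPM in every group, and Adgre1, the F4/80 antigen, was at 0 CPM throughout. The 11 genes summed to 12.4 to 13.5 CPM with siCont, 18.9 to 20.4 with siKeap1, 12.9 to 13.9 with siFem1b and 20.97 to 22.4 with both. Cd68, a lysosomal membrane gene in that list, was at 1.56 ± 0.35 CPM (SD, n = 3) in siCont, 3.59 ± 0.47 in siKeap1, 2.06 ± 0.22 in siFem1b and 5.71 ± 0.45 with both. Of 7 osteoclast markers, 6 were under 1 CPM in every group. Of the 5 macrophage markers with enough counts to be tested, 4 rose with siKeap1, 1 with siFem1b and 3 with both. Over all genes tested, 18.4%, 30% and 33.8% were called higher. The osteoclast markers summed to 27.7 to 30.1 CPM in siCont, 34.1 to 34.6 in siKeap1, 26.3 to 29.3 in siFem1b and 30.0 to 32.6 with both. Most of these sums came from the single marker not under 1 CPM. Of the 2 osteoclast markers tested, 1 was called higher with siKeap1 and 0 with siFem1b or with both. Of 6 adipocyte markers, 5 were under 1 CPM in every group, and the remaining marker held most of the sum of these genes. They summed to 31.4 to 32.6 CPM in siCont, 39.5 to 40.0 in siKeap1, 30.5 to 33.9 in siFem1b and 44.7 to 45.7 with both, and the 2 tested, Fabp4 and Pparg, rose with both siRNAs. The part of these markers in the Gpnmb values was not tested.

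**Figure D2:**
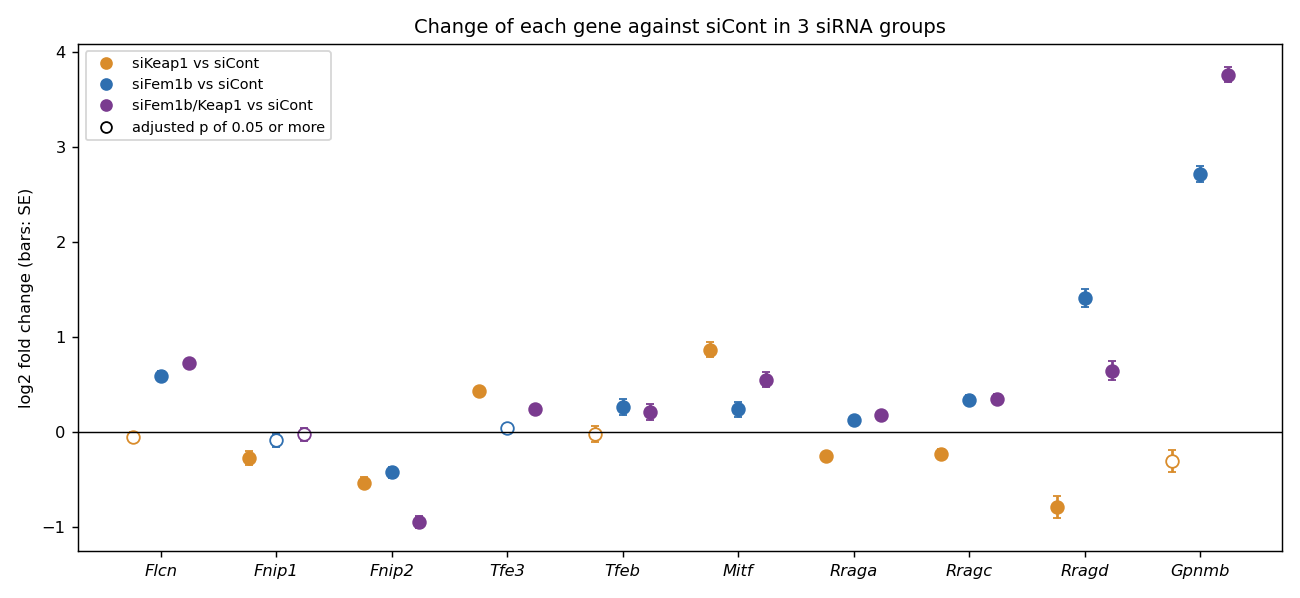
Log2 fold change against siCont (y axis) of each of the 10 genes (x axis) in siKeap1, siFem1b and siFem1b/Keap1, with bars for the SE and open points for an adjusted p of 0.05 or more. Gpnmb and Rragd rise most with siFem1b, and for Mitf and Tfe3 the siKeap1 points lie highest.

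Against siKeap1 as the reference, siFem1b/Keap1 raised 7 and lowered 3 of the 10 genes, where 63.6% of all genes were called (32% higher and 31.6% lower) and the groups did not overlap for 10 of them, against 69.4% of all genes. Gpnmb rose 16.6-fold (4.06 on the log2 scale, SE 0.08, adjusted p = 2.66e-17), Rragd 2.70-fold (1.43, SE 0.11, adjusted p = 1.03e-09), Flcn 1.71-fold (0.77, SE 0.05, adjusted p = 3.29e-11) and Rragc 1.49-fold (0.57, SE 0.05, adjusted p = 1.22e-08). Fnip2, Mitf and Tfe3 fell, by 1.33-fold, 1.24-fold and 1.14-fold. Fnip1 rose 1.18-fold (adjusted p = 0.00674). Tfeb rose by 0.23 on the log2 scale (adjusted p = 0.0237), a call lost without siKeap1 library 3 (0.123), without siFem1b/Keap1 library 2 (0.107) or 3 (0.0741), in either run alone (0.118 and 0.0837) and with the length offset (0.302). Against siFem1b as the reference, siFem1b/Keap1 raised 4 and lowered 2, where 43.1% of all genes were called (21.3% higher and 21.8% lower). In 6 of the 10 the groups did not overlap, against 50.8% of all genes. The 4 were Gpnmb, Mitf (1.24-fold, adjusted p = 0.00285), Tfe3 (1.15-fold, adjusted p = 3.62e-04) and Flcn, and Rragd and Fnip2 (1.44-fold, adjusted p = 1.1e-06) fell. Tfeb and Fnip1 had log2 fold changes of -0.05 (95% interval -0.24 to 0.14) and 0.06 (-0.10 to 0.22), whose signs turned without siFem1b library 3 and siFem1b/Keap1 library 2. The Rragc value of 0.01 turned without siFem1b library 1 or 3 or siFem1b/Keap1 library 1 or 2.

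Compared directly, siFem1b and siKeap1 differed in 9 of the 10 genes (7 higher and 2 lower in siFem1b), where 63.9% of all genes were called (32.1% higher and 31.8% lower). In 8 of them the groups did not overlap, against 67.6% of all genes. Gpnmb was 8.08-fold and Rragd 4.59-fold higher in siFem1b, and Mitf and Tfe3 were 1.54-fold and 1.31-fold lower. Fnip1 was 1.14-fold higher (adjusted p = 0.0332), with overlapping groups. That call was lost without siKeap1 library 1 (adjusted p = 0.0877) or 3 (0.123), without siFem1b library 2 (0.231) or 3 (0.0707), without siFem1b/Keap1 library 1 (0.0656), in the first run alone (0.0713) and with the length offset (0.0584). Tfeb was 0.28 higher on the log2 scale (adjusted p = 0.0072), a call lost without siFem1b library 3 (0.0688), in the first run (0.137) and with the length offset (0.29). Fnip2, lower than siCont in each, had a log2 fold change of 0.11 between them (adjusted p = 0.106, 95% interval -0.02 to 0.25), which became a call with library totals (0.18, adjusted p = 0.0117) and among genes of at least 5 CPM (0.14, adjusted p = 0.044).

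Whether both siRNAs did more or less than the sum of each was tested as an interaction, the change from siFem1b to siFem1b/Keap1 minus the change from siCont to siKeap1. Of the 10 genes, 4 were above the sum and 2 below it, where 11.4% of all genes were called (6.11% higher and 5.32% lower). For Gpnmb the separate log2 fold changes added to 2.42 and 3.76 was measured, an excess of 1.34 (SE 0.13, adjusted p = 1.44e-06). The excess was 1.26 to 1.44 with any 1 library left out, but 0.73 (adjusted p = 0.126) in the first run alone. For Mitf the sum was 1.11 and 0.55 was measured, a shortfall of -0.56 (SE 0.11, adjusted p = 0.00211; 0.0743 in the first run and 0.062 with the length offset). Tfe3 also lay below its sum (0.25 for 0.48, interaction -0.24, SE 0.05, adjusted p = 0.00707). Rraga lay above it (0.18 for -0.12, interaction 0.30, SE 0.06, adjusted p = 0.0035; 0.0512 in the second run).

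Fnip1 (interaction 0.33, adjusted p = 0.0439) and Rragc (0.24, adjusted p = 0.0408) were called more weakly. Fnip1 kept the call in 4 and Rragc in 3 of the 12 fits that left out 1 library, with adjusted p up to 0.145 and 0.187. The libraries without which the Fnip1 call was lost were siCont 1 and 3, siKeap1 1 and 3, siFem1b 1 and 3 and siFem1b/Keap1 1 and 2. For Rragc they were siCont 2 and 3, siKeap1 1, 2 and 3, siFem1b 1 and 3 and siFem1b/Keap1 1 and 2. Fnip2 (interaction 0.01, SE 0.08, 95% interval -0.19 to 0.20), Rragd (0.02, SE 0.14, -0.31 to 0.35), Tfeb (-0.03, SE 0.12, -0.31 to 0.24) and Flcn (0.18, SE 0.06, adjusted p = 0.087) did not pass the threshold. The small interactions of Fnip2, Rragd and Tfeb changed sign when certain libraries were left out: siCont 3 and siKeap1 3 (Fnip2 and Rragd), siKeap1 2 (Tfeb), siFem1b 1 (Rragd), siFem1b 2 and 3 (Fnip2), and siFem1b/Keap1 2 (Fnip2 and Rragd), 1 and 3 (Fnip2).

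**Figure D3:**
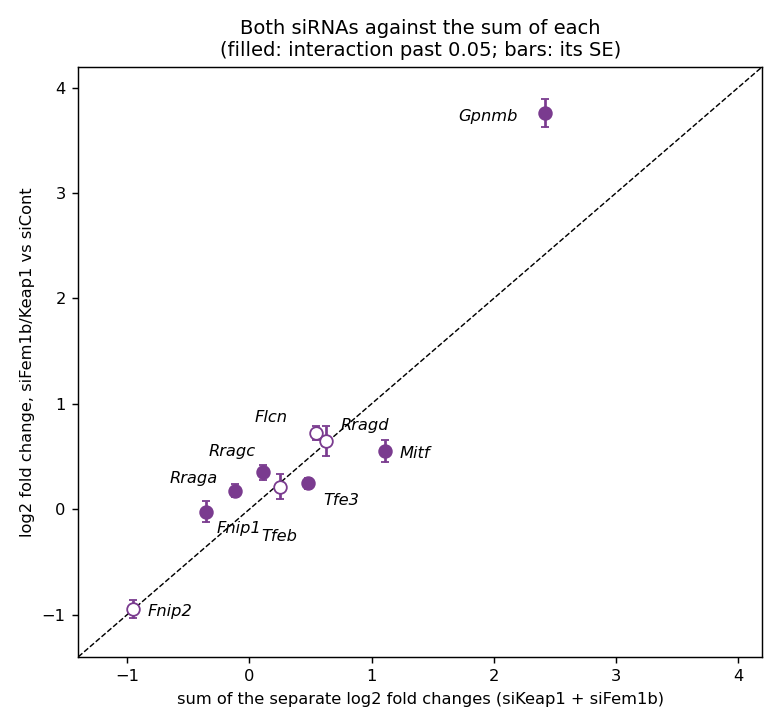
Log2 fold change with both siRNAs (y axis) against the sum of the log2 fold changes with each (x axis) for the 10 genes, with the dashed line where the values are equal, bars for the SE of the interaction and filled points for an adjusted p under 0.05. Gpnmb lies 1.34 above the line and Mitf 0.56 below it, while Fnip2 and Rragd lie on it.

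Levels of different genes can be set side by side only per length, for which the deposited TPM of a gene's transcripts were added. In siCont, Rragc was the most abundant of the 10 (69.7 ± 5.4 TPM, SD, n = 3), followed by Rraga (51.3 ± 1.2) and Tfe3 (42.0 ± 2.0). Flcn (16.7 ± 0.5), Fnip1 (15.6 ± 1.5) and Fnip2 (13.8 ± 1.2) came next, and neighbours in this trio overlapped. Tfeb stood at 6.08 ± 1.05, Mitf at 2.39 ± 0.15, Rragd at 2.25 ± 0.21 (overlapping Mitf) and Gpnmb last at 1.04 ± 0.21 TPM. Of the MiT/TFE factors Tfe3 was the most abundant in every group, with 7.01 ± 1.01 times the TPM of Tfeb and 17.7 ± 1.9 times that of Mitf in siCont.

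In siKeap1 the order changed little: Tfe3 (60.7 ± 2.1 TPM) overlapped Rragc (59.3 ± 1.1) at the top, and Gpnmb stayed last (0.765 ± 0.144). With siFem1b, Gpnmb (6.99 ± 0.22 TPM) ranked 8 of 10, overlapping Rragd (6.73 ± 0.89), and Mitf came last (3.08 ± 0.18). With both siRNAs, Gpnmb (12.9 ± 0.2 TPM) ranked 6 of 10, below Fnip1 (16.5 ± 1.7) and above Tfeb (8.25 ± 0.52), and Rragd (4.01 ± 1.10) overlapped Mitf (3.74 ± 0.48) at the end. Fnip2 went from 0.883 ± 0.008 times the TPM of Fnip1 in siCont to 0.720 ± 0.070 in siKeap1, 0.688 ± 0.054 in siFem1b and 0.501 ± 0.031 with both. The TPM of Rragd was 0.032 ± 0.001 times that of Rragc in siCont, 0.023 ± 0.004 in siKeap1, 0.070 ± 0.004 in siFem1b and 0.042 ± 0.010 with both. RagC RNA thus outweighed RagD RNA in every group, and these ratios were not tested.

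**Figure D4:**
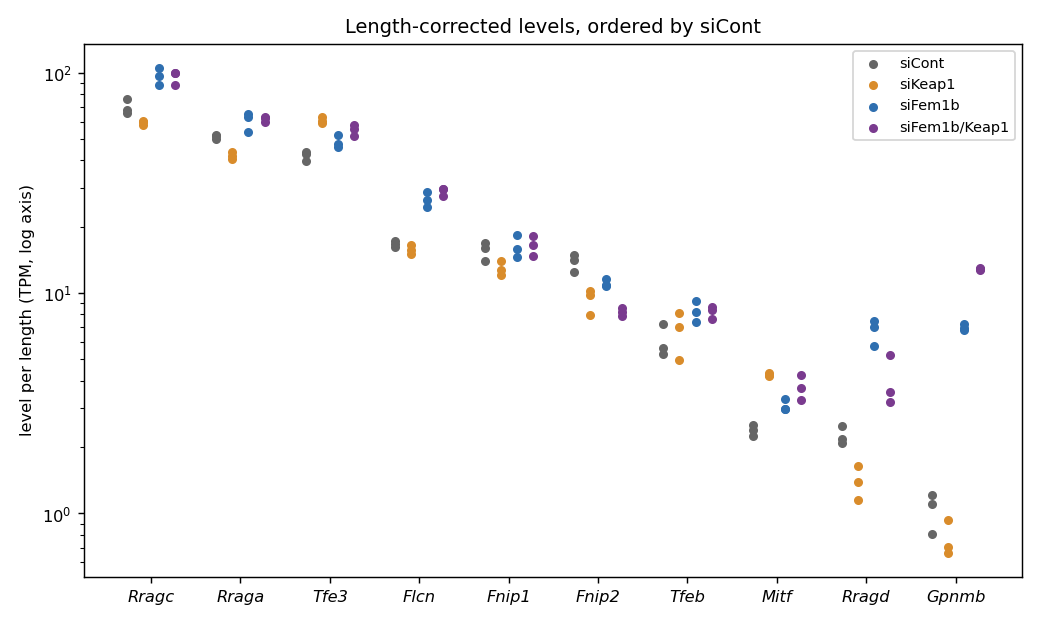
Length-corrected level in TPM (y axis, log scale) of the 10 genes, ordered by their siCont mean (x axis), with a point per library coloured by group. Gpnmb is lowest in siCont and siKeap1, above Mitf and level with Rragd in siFem1b, and above both with the siRNA pair.

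Beyond the 10 genes, a list of 37 genes known as targets of TFEB and TFE3, most of them lysosomal or autophagy genes, was followed. Of these, 36 were tested. Hif1a, Ppargc1a and Rheb are in it too, and Rheb and Mcoln1 are counted again in lists below. Over all genes, as above, 42.2% were called with siKeap1, 62.1% with siFem1b and 67.5% with both, and the medians were -0.02, -0.01 and 0.01. With siFem1b 20 rose and 7 fell (median log2 fold change 0.15), with both siRNAs 26 rose and 6 fell (median 0.41), and with siKeap1 10 rose and 12 fell (median -0.0047). Neu1, the lysosomal sialidase, was at 21.7 ± 1.1 CPM (SD, n = 3) in siCont, 18.2 ± 0.5 in siKeap1, 45.2 ± 1.3 in siFem1b and 57.5 ± 2.9 with both. Tpp1, a lysosomal peptidase, was at 80.8 ± 2.8, 72.2 ± 1.8, 113 ± 0.7 and 139 ± 3.3 CPM. Both rose with siFem1b (log2 fold change 1.06 and 0.48) and with both siRNAs (1.41 and 0.79), and fell with siKeap1. With both they were higher than with siFem1b alone (log2 fold change 0.35, adjusted p = 1.19e-05, and 0.31, adjusted p = 2.43e-06).

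Other genes of that list had other orders. Sqstm1, which encodes the autophagy receptor p62 and is also a known NRF2 target, rose with siKeap1 (log2 fold change 0.74) and fell with siFem1b. Ctsd, which encodes cathepsin D, rose with siKeap1 (0.73) and with both (0.81), and Ctsb (0.43) and Gabarapl1 (0.62) were the other genes with the smallest p in siKeap1. Atp6v0d1, a subunit of the lysosomal proton pump, rose with siFem1b (0.71), while Ppt1, a lysosomal thioesterase, fell (-0.94). Ctsa, the protective protein of Neu1, rose by 0.88 with both siRNAs. In the interaction 15 of the 36 were above the sum and 2 below it, where 11.4% of all genes were called (6.11% higher and 5.32% lower). The median was 0.19 beside 0.02 over all genes. Tpp1 (0.47), Neu1 (0.60) and Ctsa (0.39) lay above the sum and Sqstm1 (-0.37) below it. The number called in this list, 17, was 6 in the first run, 10 in the second, 7 with the length offset and 11 without siFem1b/Keap1 library 3. The calcium channel gene Mcoln1 had log2 fold changes of -0.14 with siKeap1, 0.01 with siFem1b and -0.01 with both (adjusted p = 0.0622, 0.849 and 0.862 by edgeR).

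A list of 8 related genes held the Ragulator subunits Lamtor1 to Lamtor5, which anchor the Rag pair to the lysosome, the amino acid transporter Slc38a9, the Rag gene Rragb and the MiT/TFE gene Tfec, and 6 were tested. With siFem1b 4 of the 6 rose and 0 fell (median log2 fold change 0.21), where 30% of all genes were higher and 32.1% lower. With both siRNAs again 4 rose and 0 fell (median 0.335), where 33.8% of all genes were higher and 33.7% lower. With siKeap1 Lamtor1 fell by 0.19 on the log2 scale (adjusted p = 0.0299). That Lamtor1 call was lost in 11 other fits, among them those without siCont library 1 or 2, siKeap1 library 1 or 2, siFem1b library 3, or siFem1b/Keap1 library 1 or 3. In each case the 4 were Lamtor2, Lamtor3, Lamtor4 and Lamtor5, and with both siRNAs Lamtor4 rose by 0.98 and Lamtor3 by 0.58. The Lamtor5 rise with siFem1b (0.13, adjusted p = 0.0364) was lost in 8 other fits, among them those without siCont library 1 or 3, siKeap1 library 1 or 2, or siFem1b library 1. Rragb and Tfec had too few counts to be tested. Of 9 genes of the mTORC1 core and its direct inhibitors, 2 rose and 5 fell with siFem1b, 2 rose and 4 fell with both, and 4 rose and 3 fell with siKeap1 (medians -0.15, -0.14 and -0.12). The share of these 9 called was above that of all genes with siKeap1 (42.2% of all genes) and with siFem1b (62.1%). With both siRNAs it was near that of all genes (67.5%). Mtor, the kinase, fell by 0.18, 0.45 and 0.73 with siKeap1, siFem1b and both. Rptor, which encodes the subunit that recruits substrates, fell by 0.43, 0.15 and 0.56 in the same order. Its siFem1b call held in 20 of 23 other fits. Deptor, an inhibitor, rose by 0.66 with siKeap1 and by 0.58 with both.

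The amino acid sensors and the GATOR and KICSTOR complexes, which set the state of RagA, moved in both directions (18 tested). With siKeap1 2 rose and 4 fell, with siFem1b 6 rose and 6 fell, and with both 6 rose and 7 fell (medians -0.04, -0.0016 and -0.03). With siKeap1 a smaller share was called than over all genes, and in the groups with siFem1b a similar one. Castor2 rose by 0.31, 0.87 and 1.03 on the log2 scale, and Itfg2, a KICSTOR subunit, fell by 0.44 with siFem1b and by 0.58 with both. Of 12 genes whose products move the factors between cytoplasm and nucleus (calcineurin subunits, 14-3-3 proteins, Mcoln1 and the exportin Xpo1), 1 rose and 7 fell with siKeap1, 1 rose and 3 fell with siFem1b, and 1 rose and 7 fell with both (medians -0.21, -0.05 and -0.14). The share called was above that of all genes with siKeap1, below it with siFem1b and similar with both. Ppp3ca, a calcineurin catalytic subunit, rose by 0.74 with siFem1b and by 0.42 with both and fell by 0.30 with siKeap1, and Ywhae, a 14-3-3 gene, fell by 0.30, 0.38 and 0.69 with siKeap1, siFem1b and both. Of 7 AMPK subunits, 1 rose and 2 fell with siKeap1, 2 rose and 2 fell with siFem1b, and 3 rose and 2 fell with both (medians 0.12, 0.10 and 0.14), each near the share over all genes. Prkag2 rose by 0.56 with siFem1b and by 0.90 with both. Prkab1 fell by 0.23, 0.38 and 0.56 with siKeap1, siFem1b and both, and its siKeap1 call held in 22 of 23 other fits.

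The genes whose levels over the 12 libraries were most like those of 3 others of the 10 were taken among the same 10210 genes. For Gpnmb they were Ndrg4, Igf2r, Wfs1, Ocln and Dusp8 (Pearson's r of log2 CPM between 0.996 and 0.997). Igf2r, which encodes the receptor that carries enzymes to lysosomes, was at 49.3, 46.4, 83.5 and 103 CPM on average in siCont, siKeap1, siFem1b and siFem1b/Keap1, the same order as Gpnmb over a smaller range. For Flcn they were Plin3, Bckdha, Ube2l6, Dusp8 and Pam (0.994 to 0.997). Fnip1 had looser matches, Hspa4l (0.942), Erap1 (0.92), Ttc8 (0.906), Exoc8 (0.90) and Rad17 (0.894). The points share the 4 groups, and no p is attached to these values.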

How the data were processed

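Poly(A)-selected RNA of 12 C2C12 libraries was sequenced in 2 runs each, per the labels' protocols. The authors used kallisto 0.44.0 and mm10, per the submitters' processing notes, and deposited estimated counts, TPM values and effective lengths for 118489 transcripts. Trimming is not given in the sources used here.

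Identifiers of 116728 transcripts (98.5%) matched GENCODE M21. The rest, 0.606% to 0.64% of the counts, were dropped. Deposited estimated counts became whole gene counts per library, runs pooled. By correlation of log2 CPM centred per gene, the second run matched its own first run best in 11 of 12 libraries. With edgeR 4.0.16, genes passed filterByExpr, TMM set the scale (factors 0.952 to 1.04), and 1 quasi-likelihood fit over the 4 groups gave 2-sided tests, adjusted by Benjamini and Hochberg's method over 14577 genes. An SE is the log2 fold change divided by the square root of the test's F. The 95% intervals use this SE with a t distribution of 8 degrees of freedom. They are not adjusted for the number of genes, so an interval and an adjusted p can differ on the same gene. Deposited TPM values, averaged over runs, served to compare genes.

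Other fits used other scaling (DESeq2 1.42.0 size factors, totals), tools (the DESeq2 Wald test, limma-voom 3.58.1), filters (none, 5 CPM), a length offset, single runs, a replicate block, the compared groups only, or 1 library fewer. The genes, lists and tests were chosen with earlier results of these data known. All 10 genes are named, and of each other list up to 4 genes with the smallest p. Mcoln1, Cd68, Adgre1, Myog, Myh3, Tnnt1, Acta1, Fabp4 and Pparg were named after their values were seen. Promoters of all 10 genes came from RefSeq (GRCm38.p6).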

Additional observations from a re-analysis of the deposited data

Results flagged for a closer look

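For 6 of the 10 genes the effect of the Keap1 siRNA differed between cells with and without the Fem1b siRNA, by the interaction term of the edgeR fit, which called 11.4% of all genes. On the log2 scale the difference was 1.34 for Gpnmb (adjusted p = 1.44e-06), -0.56 for Mitf (adjusted p = 0.00211), 0.30 for Rraga (adjusted p = 0.0035), -0.24 for Tfe3 (adjusted p = 0.00707), 0.24 for Rragc (adjusted p = 0.0408) and 0.33 for Fnip1 (adjusted p = 0.0439). The calls for Rragc and Fnip1 held in 6 and 10 of 22 other fits, those for the others in 20 to 22. Gpnmb had a log2 fold change of -0.30 with siKeap1 alone, which was not called, and was 1.04 higher with siKeap1 on top of siFem1b, whereas Mitf and Tfe3 rose less with siKeap1 when siFem1b was present.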

How the results depend on the processing

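For the 10 genes, 1600 alternative values were computed over 70 log2 fold changes: 1473 kept direction and side of the threshold, 74 lost the call, 7 gained it and 46 changed sign, all in 11 fold changes that were not called. The numbers of genes and of the 10 genes called moved by over 1.5 times in few fits. In the first run alone, 5 of the 10 were called with siFem1b (8 before), and in the interaction 2 of the 10 (6 before) and 929 of all genes (1667 before). With the length offset the interaction called 3 of the 10 and 848 of all genes. Counts with 1 library left out ranged from 6 to 8 of the 10 with siFem1b and from 4 to 6 in the interaction.

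The sign changes were these. Tfeb in siKeap1 against siCont was 0.0137 with library totals, 0.0137 at 5 CPM, 0.1419 with the length offset, 0.0487 and 0.0023 in the first and second run, 0.0153 with the compared groups only and -0.0539 to 0.042 with libraries left out. Flcn and Gpnmb in siKeap1 were 0.1343 and 0.1951 in the first run. Fnip1 was 0.014 in siFem1b with library totals. In siFem1b/Keap1 against siCont Fnip1 was 0.099 with library totals, 0.0414 at 5 CPM, 0.0016 in the first run and -0.0945 to 0.0371 with libraries left out. Between siFem1b/Keap1 and siFem1b, Tfeb was 0.0127 in the first run and -0.0916 to 0.0019 with libraries left out, Rragc -0.0064 in the second run and -0.0355 to 0.0521 with libraries left out, and Fnip1 -0.0079 to 0.1219 with libraries left out. In the interaction, Fnip2 was -0.0089 with DESeq2 size factors, -0.0093 in the Wald test, -0.0138 at 5 CPM, -4e-04 and -0.0494 in the first and second run and -0.0807 to 0.0499 with libraries left out. Rragd was -0.243 in the first run and -0.1015 to 0.063 with libraries left out, and Tfeb -0.0974 to 0.0048 with libraries left out. The cause was not tested.

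Library totals alone moved the median of all genes in siFem1b/Keap1 against siCont from 0.01 to 0.13. With them the calls split into 5457 higher and 3547 lower for siFem1b (4373 and 4674 with TMM), 6134 and 3746 for siFem1b/Keap1 (4934 and 4906), and 5680 and 3526 for siFem1b/Keap1 against siKeap1 (4665 and 4602). The interaction split into 891 higher and 776 lower, and into 306 and 623 in the first run and 527 and 921 in the second.

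Replicate numbers did not pair the libraries: same-numbered libraries correlated between -0.078 and 0.117 in their deviations from group means. A fit with a replicate block called 7, 8, 9, 10, 6, 9 and 5 of the 10 genes in siKeap1, siFem1b and siFem1b/Keap1 against siCont, siFem1b/Keap1 against siKeap1 and against siFem1b, siFem1b against siKeap1, and the interaction, and 5926, 8891, 9723, 9123, 6057, 9184 and 1482 of all genes. The block cost the Rragc interaction its call (adjusted p = 0.0512 by edgeR). Depth limits Gpnmb most, with 50 to 93 counts per library in siCont and siKeap1.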

Other observations

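The 2 runs of the libraries gave different Gpnmb levels in siCont. There it stood at 1.40 ± 0.17 CPM (SD, n = 3) in the first run, on 11.5 to 19 counts per library, and at 2.36 ± 0.20 CPM in the second, on 48.6 to 74 counts. In siKeap1 the values were 1.60 ± 0.41 and 1.72 ± 0.09 CPM, in siFem1b 13.98 ± 1.02 and 13.5 ± 0.2 CPM, and in siFem1b/Keap1 26.7 ± 1.9 and 28.7 ± 1.3 CPM. The siCont level of Gpnmb, which every fold change against siCont rests on, is thus, of the 4 group levels, the one with the largest ratio between the runs. The difference between runs was not tested.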
